A study of Saccharomyces cerevisiae with 11 samples.

Results

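Yeast genes can carry different transcript leaders, the stretch of mRNA between the capped 5′ end and the start codon, according to where RNA polymerase II begins. Here the leader length of each open reading frame (ORF) in whole-cell mRNA of S288C was set against its length in mRNA from a polysome gradient, and the ORFs that disagreed were described. The members were found by a rule. The whole-cell length was the mean of both TL-seq replicates, kept where these lay within 10 nt of each other, and the gradient length was the median over TATL-seq fractions 1 to 7, kept where at least 3 fractions had a call. The median difference over ORFs, −5 nt, was subtracted, and ORFs still 20 nt or more apart were taken. Of 1871 ORFs compared, 310 (16.6%) were apart, 141 (7.54%) with a longer and 169 (9.03%) with a shorter leader in TATL-seq. A second set held the 591 ORFs that both TL-seq libraries called and no fraction did, 18.8% of the 3144 called in both. Together these are 901 of the 4551 ORFs called in any library of the series.

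TL-seq sequences RNA 5′ ends that were ligated to an adaptor after tobacco acid pyrophosphatase had removed their caps. TATL-seq is the same method applied to RNA of gradient fractions, in which mRNAs sediment by the number of ribosomes they carry. Both TL-seq libraries are labelled strain S288C and biological replicates. The fractions, 1 library each, are labelled BY4742 and polysome-purified, and the labels name no second gradient and the order of the fractions in the gradient is not stated. The growth protocol gives BY4742 as Mat α with his3∆1, leu2∆0, lys2∆0 and ura3∆0, names no other S288C strain, and describes mid-log cultures in the rich medium YPAD. A TL-seq library of Sigma 1278b, a MAT a strain with ura3, leu2, trp1 and his3 markers, made with pyrophosphatase, and its mock-treated control were not used by the rule and serve below as further readouts. For the 3′ end, TL-seq used poly(A) tailing, whereas TATL-seq ligated an adaptor. The S288C TL-seq libraries came from a HiSeq, and the fractions and both Sigma libraries from a Genome Analyzer II. Strain label, 3′ capture, source of RNA and sequencer thus cannot be told apart between S288C TL-seq and TATL-seq. The processing notes name a genome build only for the Genome Analyzer II libraries, so processing cannot be told apart from these either. Since the members were chosen on the lengths and the fractions are not replicates, no test was run on any ORF, and percentages carry Wilson 95% intervals that cover counting over ORFs only.

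The position of the cap decides which sequence a ribosome must scan before it meets the start codon. A longer leader can add upstream start codons or structure, and a very short one leaves little room for the initiation complex. Yeast promoters commonly give several start sites for 1 gene, so the length called depends on which site supplied most 5′ ends.

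The strain labels were checked on mating-type genes, and the fractions went in part against theirs. STE2, which encodes the receptor for α-factor and is expressed in a cells, had 26 nt in all 7 fractions and no call in TL-seq. The a-specific agglutinin gene AGA2 was at 51 nt in 4 fractions and at 63 nt in fraction 3. Of 7 a-specific genes, 5 had a call in at least 1 fraction, 3 in Sigma TL-seq and 0 in S288C TL-seq. The 3 in Sigma, MFA1 at 7 nt, MFA2 at 40 nt and AGA2 at 51 nt, had a call of the same length in at least 1 fraction. Of 4 α-specific genes, 3 were called in S288C TL-seq, 0 in Sigma, and 2 in a fraction: MF(ALPHA)2 in 6 fractions and STE3 in fraction 1. Since STE2 was called in every fraction, no comparison without such libraries was possible, and the part of strain in the differences below was not tested. LEU2, LYS2 and URA3, which BY4742 lacks, had no call in any library, and TRP1 had 6 nt in fractions 5 and 7. The libraries held 3561 and 3442 ORF calls in S288C TL-seq and 2081 to 2483 in the fractions, and read depth is unknown because the files give lengths alone.

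Before any ORF is singled out, TL-seq and TATL-seq lengths were offset from each other by a few nucleotides. The difference, TATL-seq minus TL-seq, was exactly −5 nt in 197 ORFs and exactly −4 nt in 151, and it lay from −6 to −4 nt in 418 of 1871 (22.3%, interval 20.5 to 24.3). From −1 to 1 nt there were 151 ORFs (8.07%). A TL-seq replicate and a fraction gave the same length for only 2.09% to 2.89% of the ORFs they share, over 14 such pairs of libraries. Pairs of fractions gave the same length for 46.1% to 69.6% (21 pairs), the TL-seq replicates for 76.2%, and a fraction and Sigma TL-seq for 35.5% to 54.0% (7 pairs). The lowest length is 1 nt in both S288C TL-seq libraries and 0 nt in every fraction. The sources used here do not state how lengths were counted in either set.

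**Figure D1:**
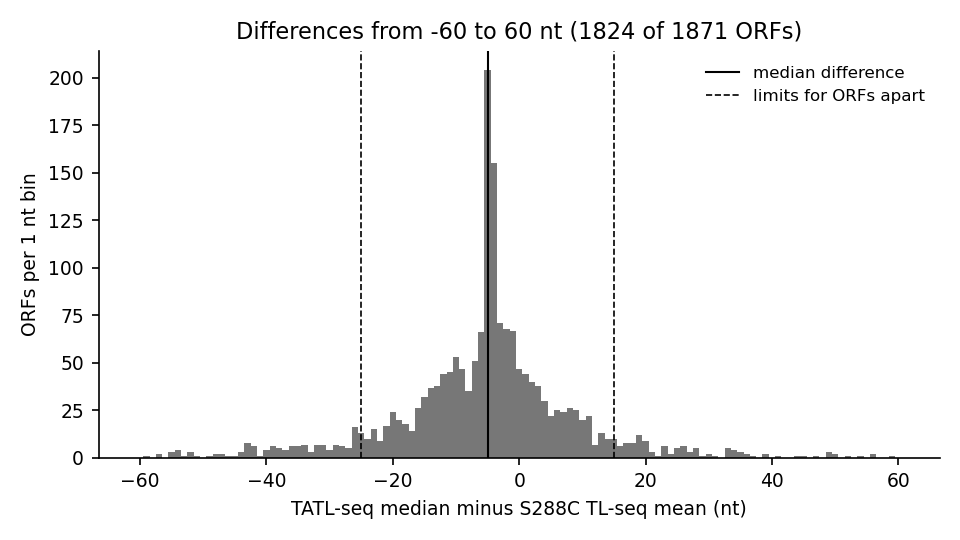
Histogram of the difference between the TATL-seq median and the S288C TL-seq mean (nt, x axis) in 1 nt bins, with the number of ORFs on the y axis; ORFs with larger differences than the axis shows are left out. The solid line is the median difference of −5 nt, where the counts peak, and the dashed lines are the limits beyond which ORFs count as apart.

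Without subtraction 98 ORFs would have counted as longer and 244 as shorter, against 141 and 169 with it. After subtraction 1232 of 1871 ORFs (65.8%, interval 63.7 to 68.0) lay within 10 nt, against 1153 (61.6%, interval 59.4 to 63.8) before it. With the ORFs cut into 5 bins by TL-seq leader, the median difference was −2 nt in the bin of shortest leaders (1 to 21 nt) and −4, −5, −7 and −6 nt in the next bins. The TL-seq leader that sets the bins is also subtracted in the difference, so nothing is read from their order. Because no leader is below 0 nt, an ORF needed at least 25 nt in TL-seq to be called shorter. The bin of shortest leaders gave 53 longer and 0 shorter ORFs, and the 2 bins of longest leaders gave 14 and 23 longer and 70 and 67 shorter ORFs. Just inside the limit lay HTA2, ARL1 and FEN2 at 20 nt and AAD4, SMB1 and RSM25 at −20 nt. Just outside lay TMA64 and RHO4 at 19.5 nt, CDC24 at 19 nt, and RPS11B, SLY1 and MHR1 at −19 nt.

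**Figure D2:**
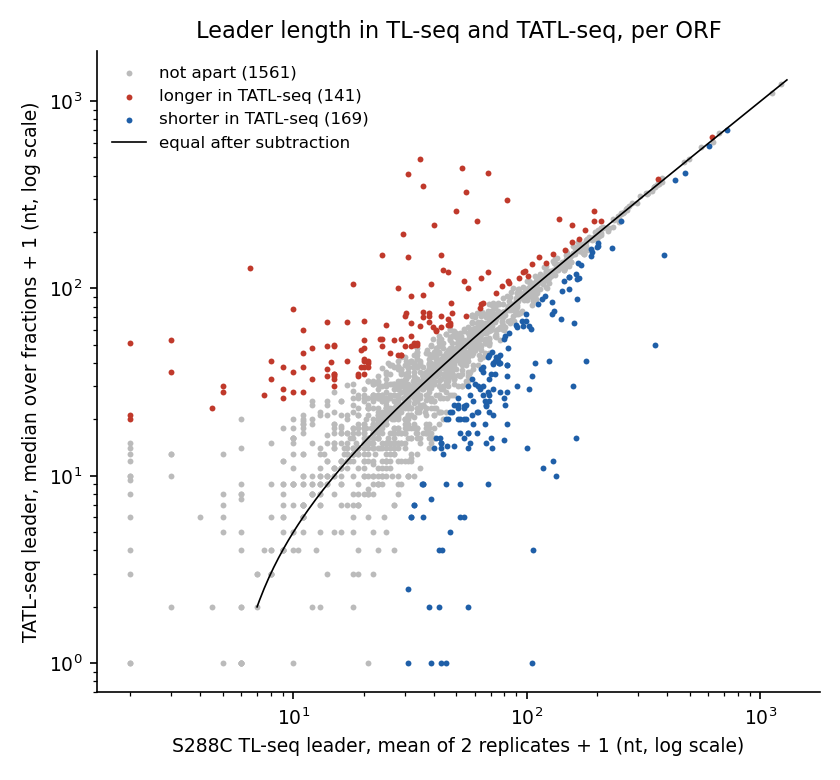
Each point is 1 of the 1871 ORFs, with the S288C TL-seq mean plus 1 nt on the x axis and the TATL-seq median plus 1 nt on the y axis, both on log scales. The line marks equal lengths after subtraction, red points are the 141 ORFs with longer and blue points the 169 with shorter TATL-seq leaders.

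The 141 ORFs with longer TATL-seq leaders went from a median of 30 nt in TL-seq (quartiles 14 and 52) to 63 nt in TATL-seq (quartiles 41 and 115). After subtraction 63 were 20 to under 30 nt apart, 42 were 30 to under 50, 20 were 50 to under 100, and 16 were 100 nt or more apart. Leaders of 100 nt or more numbered 16 in TL-seq (11.3%) and 45 in TATL-seq (31.9%), against 11.9% and 10.6% of the ORFs not apart. The rule favours long TATL-seq leaders in this set, since it asks for a longer one.

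Ribosomal protein genes gave 3 of the 5 largest differences. RPL24A, for a protein of the large ribosomal subunit (chromosome VII, 437467 to 437934 in RefSeq assembly R64), had 34 nt in both TL-seq replicates, and its 3 fractions with a call gave 481 nt (fraction 1) and 491 nt (fractions 4 and 5). Its paralog RPL24B (chromosome VII, 787312 to 787779) had 30 nt in both replicates and 399 to 430 nt over all 7 fractions, with a median of 406 nt. For both genes every fraction with a call lay above both replicates, with no overlap, which the rule favours because it chose ORFs on these lengths. The small-subunit gene RPS25A (chromosome VII, 534132 to 534458) had 35 nt in both replicates and from 327 to 362 nt, median 351 nt, in fractions 2 to 7. RPS25B, the paralog of RPS25A, was long by both methods, with 469 nt in both replicates and 470 to 475 nt over the 7 fractions. The spans of RPL24A, RPL24B and RPS25A in the RefSeq table are multiples of 3, and the sources used here do not state whether introns before the start codon count toward a leader. How reads shared by near-identical paralogs were assigned is not given either, so these lengths are uncertain.

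YBL100W-A, a Gag gene of the repeated Ty2 element (chromosome II, 29935 to 31251), had 52 nt in both replicates and 439, 445 and 428 nt in fractions 1, 2 and 4. Its reads can come from other copies of the element. PBI2, for an inhibitor of the vacuolar proteinase B (chromosome XIV, 605384 to 605611), had 67 nt in both replicates and 413 nt in fractions 2, 3 and 7. RMI1, for a subunit of the Sgs1-Top3 complex that resolves recombination intermediates (chromosome XVI, 503517 to 504242), had 54 nt in both replicates, 37 nt in fraction 1, and much longer leaders of 354, 302 and 348 nt in fractions 2, 6 and 7. Fraction 1 of RMI1 thus lay below the replicates and the other 3 far above them.

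RGI1, a gene of respiratory growth (chromosome V, 292066 to 292551), was split in the same way. It had 86 and 77 nt in the replicates (81.5 nt ± 6.36, SD, n = 2), 34 and 49 nt in fractions 1 and 3, whereas fractions 4, 6 and 7 all had 295 nt. TDH2, for glyceraldehyde-3-phosphate dehydrogenase (chromosome X, 453683 to 454681), had 49 nt in both replicates and 250 to 261 nt, median 259 nt, in fractions 2 to 7. The paralog TDH3 had 40 nt in both replicates and 39 nt in fractions 2, 4, 5, 6 and 7, so it was not apart. APS2, for the small subunit of the clathrin adaptor AP-2 (chromosome X, 544732 to 545175), had 39 nt in both replicates and 218 nt in each of 6 fractions. KTI12, for a protein associated with the Elongator complex (chromosome XI, 228939 to 229880), had 60 nt in both replicates and 229 nt in each of 6 fractions. In TDH2, APS2 and KTI12 the fractions and replicates did not overlap, which the rule again favours.

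At the short end, 24 of the 141 had a TL-seq leader under 12 nt (interval 11.7 to 24.1), against 125 of the 1561 ORFs not apart (8.01%, interval 6.76 to 9.46). The rule favours such an excess, because the TL-seq leader is subtracted in the difference. None of the 141 could be under 12 nt in TATL-seq, since TL-seq leaders start at 1 nt and the rule asks for a longer one. The absence of such TATL-seq leaders is therefore no result. APA2, for a diadenosine tetraphosphate phosphorylase, had 6 and 5 nt in the replicates and 113 to 130 nt, median 128 nt, over the 7 fractions. RNH203, for a subunit of ribonuclease H2, had 2 nt in both replicates, 116 nt in fraction 7 and 52 nt elsewhere. The Mediator cyclin gene SSN8 had 1 nt in both replicates and 32 to 54 nt, median 50 nt, over the 7 fractions. HIS1, the first step of histidine synthesis, had 10 nt in both replicates and 59 nt in fractions 4 to 7. The diacylglycerol kinase gene DGK1 had 10 nt in both replicates and 44 nt in all 7 fractions.

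The 169 ORFs with shorter TATL-seq leaders went from a median of 69 nt in TL-seq (quartiles 53 and 104) to 26 nt in TATL-seq (quartiles 14.5 and 53). Most were moderately apart after subtraction: 75 by 20 to under 30 nt, 65 by 30 to under 50, 21 by 50 to under 100, and 8 by 100 nt or more. TATL-seq leaders under 12 nt numbered 30 (17.8%, interval 12.7 to 24.2), against 212 of the 1561 ORFs not apart (13.6%, interval 12.0 to 15.4). The smallest TL-seq leader of 25 nt that the rule allows meant that none of the 169 could be under 12 nt in TL-seq.

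The largest difference was that of GPC1, for glycerophosphocholine acyltransferase (chromosome VII, 789031 to 790329), with 355 and 351 nt in the replicates (353 nt ± 2.83, SD, n = 2), 45 and 48 nt in fractions 3 and 4, whereas fractions 2, 5, 6 and 7 had 49 nt. The uncharacterised ORF YMR206W (chromosome XIII, 675896 to 676837) had 386 nt in both replicates, 150 nt in fractions 1 and 6 and 136 nt in fraction 2, whereas fraction 5, at 398 nt, lay above the replicates. CTF19, for a protein of the inner kinetochore (chromosome XVI, 517651 to 518760), had 179 nt in both replicates, 188 nt in fraction 1, and from 40 to 50 nt elsewhere in the gradient. PRK1, a kinase gene of the actin cytoskeleton (chromosome IX, 183937 to 186369), had 162 nt in both replicates and 7, 23 and 15 nt in fractions 3, 5 and 7. ADE16, of purine synthesis (chromosome XII, 199540 to 201315), had 157 nt in both replicates and 29 nt in fractions 2 to 7. Among these, CTF19 and YMR206W overlapped between methods, each through 1 fraction.

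In others the TATL-seq start lay almost at the start codon. RPT3, for an ATPase of the proteasome base (chromosome IV, 1261681 to 1262967), had 105 nt in both replicates and 3 nt in all 7 fractions. MRX21 (chromosome XVI, 583062 to 584042) had 104 nt in both replicates and 0 nt in all 7 fractions. AIM7 (chromosome IV, 578663 to 579112) had 129 nt in both replicates and 11 nt in all 7 fractions. These 3 genes were thus uniform within each method. RNH1, for ribonuclease H1 (chromosome XIII, 740266 to 741312), had 116 nt in both replicates, 16 nt in fraction 1, whereas fractions 2, 4 and 5 had 10 nt. YGR026W (chromosome VII, 532985 to 533821) had 132 nt in both replicates, 21 nt in fractions 1, 3 and 4, whereas the other 4 had 9 nt. Its TL-seq leader is longer than the 43 nt that separate it from the gene upstream, YGR025W. AAD4 was the one other ORF apart whose longer start lay beyond the gap to its upstream neighbour, against 10 of the 1561 compared ORFs that were not apart.

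**Figure D3:**
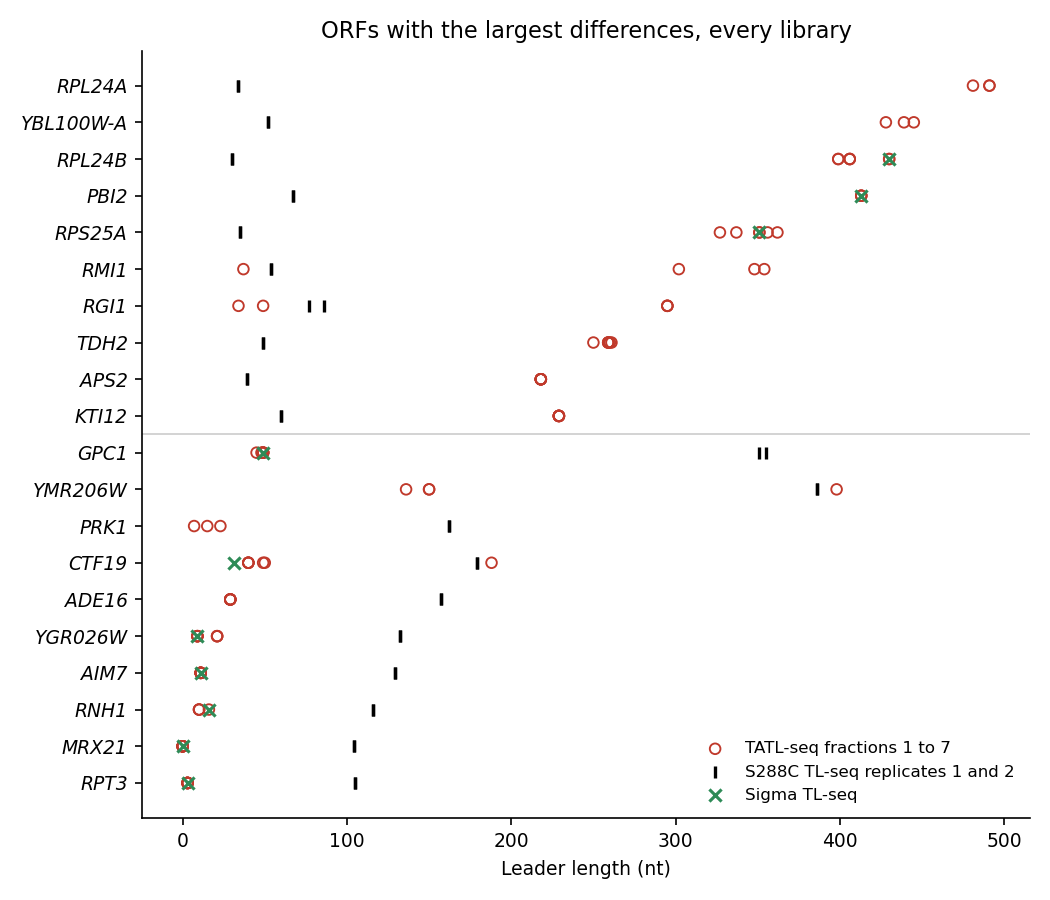
Leader length (nt, x axis) of the 10 ORFs with the largest positive (above the grey line) and the 10 with the largest negative differences, 1 row per ORF. Black bars are the S288C TL-seq replicates, red circles the TATL-seq fractions with a call and green crosses Sigma TL-seq, which lies among the fractions or within 10 nt of their range in the 10 ORFs where it has a call.

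The spread within each method was set beside these differences. Replicates were equal in 266 of the 310 (85.8%, interval 81.5 to 89.3) and in 1372 of the 1561 ORFs not apart (87.9%). A range of 10 nt or more over the fractions was found in 147 of the 310 (47.4%, interval 41.9 to 53.0) and in 441 of the 1561 (28.3%, interval 26.1 to 30.5). In 206 of the 310 (66.5%) every fraction with a call was 20 nt or more from TL-seq on the same side. By the rule no ORF outside the 310 can be of this kind, since its median would then be apart. All fractions with a call had 1 length in 76 of the 310 (24.5%, interval 20.1 to 29.6). This was less frequent than in the ORFs not apart, with 530 of the 1561 (interval 31.6 to 36.3). In 47 of the 310 (15.2%) at least 1 fraction lay within 10 nt of TL-seq after subtraction. The rule favours a low share here, and in the ORFs not apart it was 1388 of the 1561 (88.9%). INH1, for an inhibitor of the mitochondrial ATP synthase, was 1 of the 47, with 164 nt in both replicates, 156 and 154 nt in fractions 2 and 6, 135 nt in fractions 5 and 7, whereas fractions 1, 3 and 4 had 113 nt. TPM1, for tropomyosin, had 41 nt in both replicates, 37 nt in fractions 1, 3 and 4, whereas fractions 2, 5, 6 and 7 had 1 nt. No fraction carried most such calls, since between 1.92% (fraction 5) and 6.37% (fraction 3) of the ORFs apart that a fraction called lay there within 10 nt of TL-seq. Taken 1 by 1 against TL-seq, with the same −5 nt subtracted, the fractions gave 6.95% to 8.55% longer and 8.14% to 10.0% shorter ORFs.

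Grouped by function, many lists held ORFs of both directions, and the 18 respiration, 5 thiamine, 3 hexose transport and 2 sporulation genes compared gave no ORF apart. Of 106 cytosolic ribosomal protein genes compared, 6 were longer and 7 shorter in TATL-seq, 12.3% against the 16.6% of all ORFs compared, with a median difference after subtraction of 0 nt, as over all ORFs. RPS6A, for a small-subunit protein, had 30 nt in both replicates, and 146 nt in fractions 1, 2, 6 and 7, whereas fraction 3 had 26 nt, which is the length of its paralog RPS6B in both replicates and all 7 fractions. RPS12 had the largest negative difference of them, −49 nt after subtraction, with 69 nt in both replicates and 10 to 41 nt, median 15 nt, over the fractions. RPL27B had 37 nt in both replicates, 1 nt in 6 fractions and 9 nt in fraction 3. Of 37 mitochondrial ribosomal protein genes 2 were longer and 2 shorter, with MRPL24 at 27 and 32 nt in the replicates and 73 or 74 nt in 5 fractions.

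The next lists are small, and the 16.6% of all ORFs compared is the share to read each against. Of 8 glycolysis and fermentation genes compared, TDH2 was longer and PYK2 and PFK2 shorter (37.5%). PYK2, for the minor pyruvate kinase, had 100 and 99 nt in the replicates and 13 nt in 6 fractions. PFK2, for a subunit of phosphofructokinase, had 56 nt in both replicates and 13 to 22 nt, median 14 nt, over the 7 fractions. Of 20 proteasome genes PRE1 was longer and RPT3 and PRE4 shorter (15.0%). Of 20 translation factors TIF35 and TEF4 were longer and TIF34 and CAF20 shorter (20.0%). TIF35 and TIF34 encode subunits of the initiation factor eIF3: TIF35 had 18 nt in both replicates and 30 to 34 nt over the fractions. TIF34 had 39 nt in both replicates and 13 nt in all 7 fractions.

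Of 30 amino acid synthesis genes ARO8, LEU9 and HIS1 were longer and TRP4, HOM6 and SER2 shorter, 20.0% against 16.6% of all ORFs compared. ARO8, for an aromatic aminotransferase, had 43 nt in both replicates and 125 nt in fractions 4 to 7. TRP4, of tryptophan synthesis, had 127 nt in both replicates and 72 nt in fractions 2 to 7. Of 21 cell cycle genes CDC23 was longer and CDC28, WHI5 and PCL2 shorter (19.0%). CDC28, the cyclin-dependent kinase of the cell cycle, had 79 nt in both replicates and 14 to 33 nt, median 25 nt, over the 7 fractions. WHI5, the repressor of entry into the cycle, had 76 nt in both replicates and 17 to 30 nt, median 27 nt. In these genes too the methods did not overlap, as the rule favours.

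Of 10 histone genes HTA2 and CSE4 were longer and none shorter, 20.0% apart against 16.6% of all ORFs compared. CSE4, the centromeric histone H3, had 45 nt in both replicates, 59 nt in fraction 4, and 68 nt elsewhere. Among 14 heat shock and chaperone genes YDJ1 was longer and SBA1 shorter (14.3%). Of 17 cell wall genes GAS3 was longer and GAS5 shorter (11.8%), and of 26 genes of the secretory pathway SEC28 was longer and SAR1 shorter (7.69%). In other lists, each with 1 ORF apart, VTC1 (of 8 phosphate genes) and PRM5 (of 4 mating genes) were longer, and ERG3 (of 13 ergosterol genes), FIT3 (of 7 iron and copper genes) and UME6 (of 5 genes with characterised upstream ORFs) shorter. ERG3, for the sterol C-5 desaturase, had 70 nt in both replicates, 207 nt in fraction 1, and from 11 to 15 nt elsewhere, so the fractions lay on both sides of TL-seq.

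Some ORFs apart were adjacent on the chromosome. In 16 pairs an ORF apart had another as its upstream neighbour, 7 divergent and 9 in tandem. The members of a pair differed in opposite directions in 4 of the divergent and 3 of the tandem pairs. Such pairs were not counted over all compared ORFs, so no excess of neighbours or of opposite directions is read from these counts. RPL24B and GPC1 are divergently transcribed from a gap of 1251 nt, and their differences were 381 and −299 nt. In TATL-seq the RPL24B leader of 406 nt was the long one of the pair, and in TL-seq the GPC1 leader of 353 nt. RMI1 and SKS1, across 1333 nt, differed by 276 and −30 nt, and PFK2 and YMR206W, across 1129 nt, by −37 and −231 nt. The share with a divergent upstream neighbour was 55.5% of the ORFs apart (interval 49.9 to 60.9) and 53.1% of the others (interval 50.6 to 55.6).

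Sigma TL-seq, which the rule did not use, was compared with both lengths of each ORF apart. It had a call for 167 of the 310 (53.9%, interval 48.3 to 59.3) and for 66.6% of the 1561 ORFs not apart (interval 64.2 to 68.9). All 7 fractions had a call for 38.1% of the ORFs apart and 55.5% of the others. Lengths were compared as called, with no subtraction. Over all compared ORFs with a Sigma call, the median difference of Sigma was 0 nt from TATL-seq and −5 nt from S288C TL-seq. The window of 10 nt is thus off-centre for S288C TL-seq alone. In 127 of the 167 the Sigma leader was at most 10 nt from the TATL-seq median (76.0%, interval 69.0 to 81.9). It was within 10 nt of the S288C TL-seq mean in 11 (6.59%, interval 3.72 to 11.4), and within 10 nt of neither in 29. It equalled the TATL-seq median in 69. Over the 1039 ORFs not apart with a Sigma call, 85.3% lay within 10 nt of TATL-seq (interval 83.0 to 87.3) and 70.0% within 10 nt of S288C TL-seq (interval 67.1 to 72.7). The rule favours the gap between 6.59% and 70.0%. In ORFs not apart the TATL-seq and TL-seq lengths are close, so a Sigma leader near TATL-seq is often near TL-seq too. In ORFs apart it can seldom be near both, so nothing is read from that gap.

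Most Sigma leaders of the ORFs apart lay near TATL-seq in both directions. In ORFs longer in TATL-seq the Sigma leader was within 10 nt of TATL-seq in 60 of 79, with a median difference of 0 nt from TATL-seq and 22 nt from S288C TL-seq. In ORFs shorter in TATL-seq it was within 10 nt in 67 of 88, with medians of 0 and −31.25 nt. Among ORFs 50 nt or more apart, 0 of 29 with a Sigma call lay within 10 nt of S288C TL-seq, and a count of 0 allows a share of up to 10.3% (3 counts of 29). RPL24B had 430 nt in Sigma, PBI2 413 nt and RPS25A 351 nt, and GPC1 had 49 nt, AIM7 11 nt, RPT3 3 nt and MRX21 0 nt.

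The 11 ORFs in which Sigma lay near S288C TL-seq were THG1, YHI9, SNL1, TIF35 and TAF7 among the longer and RTS1, YKT6, GIS4, DCP2, RKI1 and OPY2 among the shorter ORFs. THG1, for the tRNA-His guanylyltransferase, had 4 nt in TL-seq, 27 nt in TATL-seq and 3 nt in Sigma. DCP2, the mRNA decapping enzyme, had 64, 37 and 57 nt in the same order. OPY2, of the osmotic signalling pathway, had 55, 16 and 47 nt, and its difference after subtraction, −34 nt, was the widest of the 11. Sigma TL-seq shares poly(A) tailing and whole-cell RNA with S288C TL-seq, and the sequencer with TATL-seq, in a single library labelled as another strain. Sigma TL-seq also shares with the fractions the a-specific calls given above, which S288C TL-seq lacks, and the part of strain in the 76.0% was not tested.

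**Figure D4:**
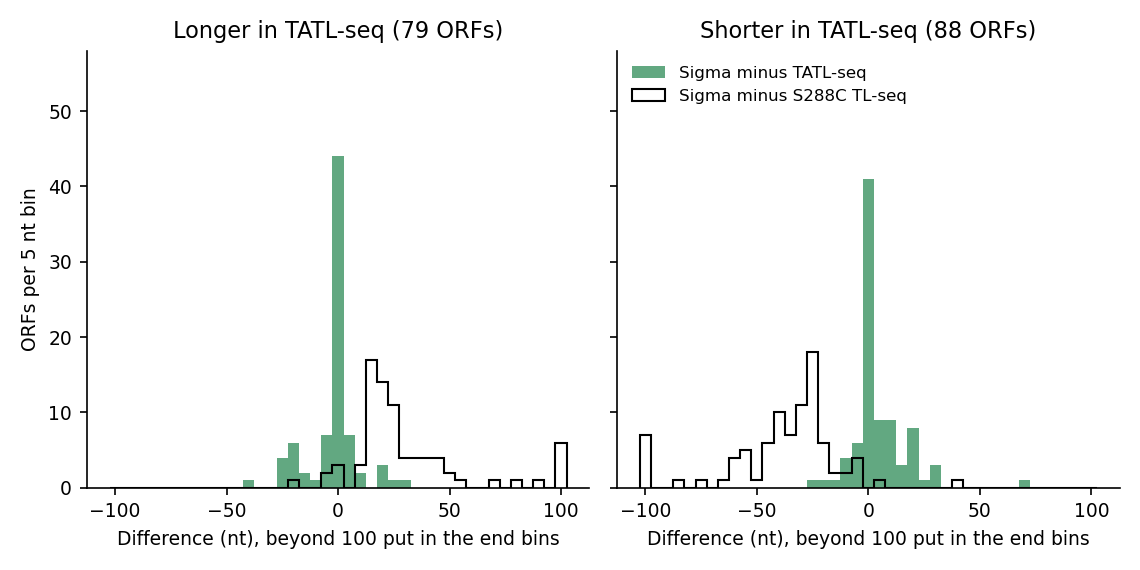
Histograms in 5 nt bins of the Sigma TL-seq leader minus the TATL-seq median (green) and minus the S288C TL-seq mean (black outline), in nt, for the ORFs longer (left, 79 ORFs) and shorter (right, 88 ORFs) in TATL-seq; the y axis is the number of ORFs, and differences beyond 100 nt are put in the end bins. The green bars peak at 0 nt in both panels, and the outlines lie mostly above 0 on the left and below 0 on the right.

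The library without pyrophosphatase, which records ends that needed no cap removal, called 17 of the 310 ORFs apart (5.48%, interval 3.45 to 8.61) and 146 of the 1561 others (9.35%, interval 8.01 to 10.9). In those 17 its length was within 10 nt of TATL-seq in 8 (47.1%, interval 26.2 to 69.0) and of S288C TL-seq in 6 (35.3%, interval 17.3 to 58.7). The 2 directions differed. In the 7 ORFs longer in TATL-seq its length was near TATL-seq in 2 and near S288C TL-seq in 4. In the 10 shorter ORFs it was near TATL-seq in 6 and near S288C TL-seq in 2. In the 146 others it was within 10 nt of TATL-seq in 82.9% (interval 75.9 to 88.1) and of S288C TL-seq in 63.0% (interval 54.9 to 70.4). These lengths too were compared as called, with no subtraction. The rule favours lower shares in the ORFs apart here as well, since a length there can seldom be near both TATL-seq and S288C TL-seq. YNL320W and YGR026W, with 29 and 9 nt, had the TATL-seq length, and QRI1, with 16 nt against 20 nt in TL-seq and 40 nt in TATL-seq, lay near the TL-seq length.

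The 591 ORFs called in both TL-seq libraries and in no fraction were long genes more often than the rest. They spanned a median of 1464 nt (quartiles 1052 and 2307), against 1128 nt (quartiles 747 and 1695) for the 2553 ORFs with a call in at least 1 fraction. Spans of 3000 nt or more made up 15.7% of the first set (interval 13.0 to 18.9) and 3.33% of the second (interval 2.70 to 4.10), and spans under 600 nt 6.77% and 15.4%. Over 5 bins of span, no fraction had a call in 10.4% of ORFs of 78 to 705 nt, 11.9%, 21.4% and 18.2% of the next bins, and 32.2% of ORFs of 1980 to 8019 nt (interval 28.7 to 36.0). The median TL-seq leader was 45 nt in the set and 41 nt in the others.

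Repeated copies made up part of the set. In 50 of the 591 (8.46%) the ORF had no gene name and a span, or a 5′ end, shared with other such ORFs. Among them YMR045C and YMR046C, YJR026W and YJR027W, and YCL019W and YCL020W are nested ORFs of Ty elements, retrotransposons that encode Gag and Pol from 1 transcript. All 50 had 52 to 54 nt in TL-seq, 14 of them spanned 3000 nt or more, and 36 fell in the third bin of span. A further 7 were genes of the subtelomeric COS family, COS1 to COS3 and COS5 to COS8, at 8 nt each. Without these 57 ORFs, and 2 copies that a fraction did call, 534 ORFs had no fraction call. Spans of 3000 nt or more were then 14.8% (interval 12.0 to 18.1) against 3.33%, and the 5 bins gave 10.4%, 11.9%, 15.7%, 18.2% and 30.7%. The median leader was then 41 nt in both sets, so the difference in leader length was not present without the copies.

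Their TL-seq calls agreed between replicates nearly as often as those of the other ORFs, within 10 nt in 508 of 591 (86.0%, interval 82.9 to 88.5) against 88.6% (interval 87.3 to 89.7). The repeated copies are counted here, each with equal replicates, and the share of agreement without them was not computed. Sigma TL-seq called 47 of the 591 (7.95%, interval 6.03 to 10.4) against 56.6% of the others (interval 54.7 to 58.5). Without the copies the shares called in Sigma were 8.8% (interval 6.68 to 11.5) and 56.6%. The share called in Sigma was higher with each further fraction that called the ORF, up to 80.4% for the 1086 ORFs called in all 7. Where Sigma did call a member whose replicates lay within 10 nt, it was within 10 nt of TL-seq in 25 of 39 (64.1%, interval 48.4 to 77.3), against 60.6% of the other ORFs. Depth and abundance, which the files do not give, were not tested as the reason for a missing call. In the opposite direction, 338 of the 2705 ORFs called in at least 3 fractions had no call in either TL-seq library.

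**Figure D5:**
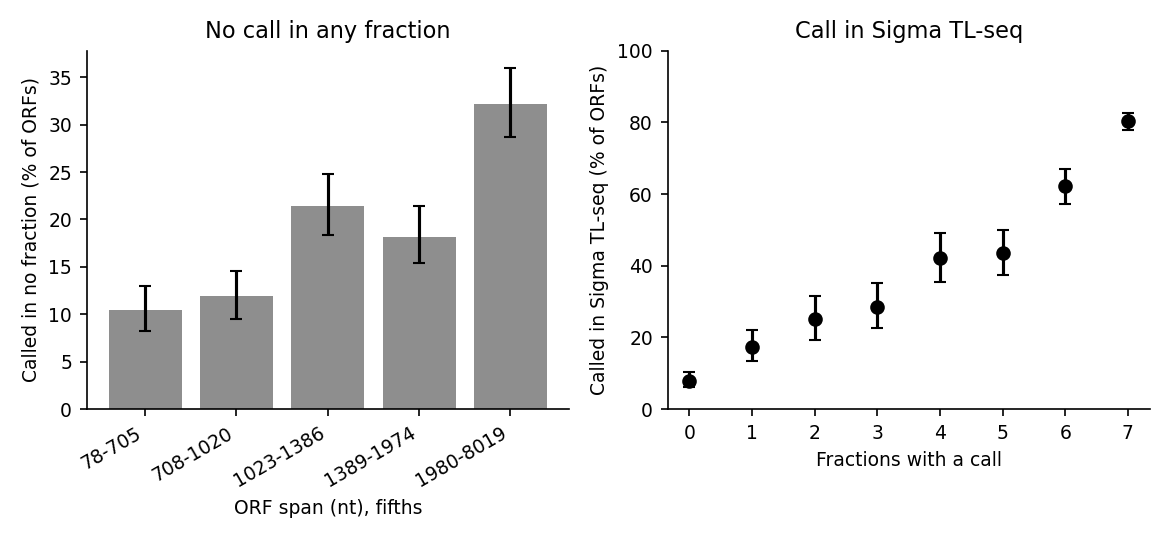
Left, share of ORFs called in both TL-seq libraries that no fraction called, in 5 bins of ORF span (nt), from 10.4% to 32.2%. Right, share of the same ORFs called in Sigma TL-seq (y axis, %) by the number of fractions with a call, from 7.95% to 80.4%. Bars (left) and points (right) are percentages, and whiskers are Wilson 95% intervals.

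Among the members with the longest leaders were regulators and large enzymes. VAC7, of phosphoinositide synthesis at the vacuole, had 1118 nt in both replicates, PHO81, the inhibitor of the phosphate-responsive kinase, 793 nt, and ACC1, acetyl-CoA carboxylase, 596 nt. GCN4, the activator of amino acid synthesis whose leader holds upstream ORFs, had 572 and 567 nt. WHI2, of the stress response, had 405 nt, HOG1, the osmotic stress kinase, 348 nt, and SKO1, a regulator acting downstream of it, 345 nt, each equal in both replicates. YRF1-1, the helicase gene of the repeated subtelomeric Y′ element, had 411 nt, and YFL064C 356 and 348 nt with 391 nt in Sigma, and YJL213W 344 nt. At the short end PEX22, RER2, SEC18, PET54 and APM2 had 1 nt in both replicates. In 98 of the 591 (16.6%) the leader reached 100 nt, and in 58 (9.81%) it was under 12 nt, against 14.8% and 7.13% of the others.

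By list, the shares without a call in any fraction ranged from 0 of 11 histone genes to well above the 18.8% of all ORFs. The lists above that share are small. No list was matched for ORF span, with which the share also differed, so nothing is read from these shares about function. Of the 119 cytosolic ribosomal protein genes that both TL-seq libraries called, 6 had no fraction call (5.04%), RPS14A, RPL14B, RPS27B, RPL39, RPL15A and RPS31. The same was true of 2 of 48 mitochondrial ribosomal protein genes, 2 of 26 proteasome genes and 2 of 24 respiration genes. Heat shock and chaperone genes gave 8 of 23 (34.8%), among them SSB1, a ribosome-bound chaperone, at 31 nt in both replicates, the ER chaperone gene KAR2 at 39 nt and the polyubiquitin gene UBI4 at 112 nt. Phosphate genes gave 5 of 15, with the acid phosphatase genes PHO11 and PHO12 at 41 nt each and the transporter gene PHO89 at 70 and 67 nt, which had 15 nt in Sigma.

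Iron and copper genes gave 5 of 16, with the transporter gene SMF3 at 166 nt and the ferric reductase gene FRE6 at 24 nt. Mating genes gave 4 of 10: the α-factor gene MF(ALPHA)1 had 55 nt in both replicates, the α-agglutinin gene SAG1 49 nt, HMLALPHA1, whose sequence is also at MAT in α cells, 38 nt, and STE5, the scaffold of the pheromone kinases, 44 and 41 nt with 47 nt in Sigma. The first 3 are genes of α cells, beside which the a-specific calls in the fractions given above stand. HIS3, altered in BY4742, had 24 and 6 nt in the replicates and no fraction call. Glycolysis gave 3 of 16, HXK2 at 48 nt, ENO2 at 31 nt and GPM1 at 24 nt, the same in both replicates, and translation factors 5 of 33, among them RPG1 and NIP1, for eIF3 subunits, at 26 and 57 nt. Of 51 amino acid synthesis genes 6 had no fraction call, of 39 genes of the secretory pathway 6, of 30 cell wall genes 4, of 28 cell cycle genes 3, and of 19 ergosterol genes 3. For genes with near-identical copies, such as EFT1, HSC82, SSB1, PHO11, PHO12, YRF1-1, the COS family and the Ty ORFs, the assignment of shared reads is not known. EFT2, for the same elongation factor as EFT1, was called in 6 fractions at 43 or 44 nt.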

How the data were processed

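Leader lengths of ORFs were taken from 2 S288C TL-seq libraries and 7 TATL-seq fractions, with 2 Sigma libraries as further readouts. Each file, as deposited by the authors, pairs an ORF name with 1 leader length in nt. Reads were aligned with Bowtie, per the submitters' processing notes, which name sacCer3 for the 9 Genome Analyzer II libraries. The sources used here do not state the build of the S288C TL-seq libraries, the Bowtie version, the annotation or the rule that turns reads into a length. No read counts are given, so no depth, read-count interval or count test could be had.

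ORFs were matched by systematic name to the RefSeq table (assembly R64), which supplied symbols, spans and neighbours and matched all 4551, and 57 snoRNA and tRNA names were left out. The coordinates printed are those of R64 ORF spans. Lengths were compared with pandas 2.3.3 under Python 3.11.15, figures drawn with matplotlib 3.10.9 and Wilson intervals taken from SciPy 1.17.1. The rule was run on simulated data with known shifts, in which all leaders were lengthened and fractions had the noise of the TL-seq replicates. That run does not cover the shortest leaders or the real spread over fractions. Spans that are not a multiple of 3 can hold introns.

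The members and gene lists were chosen with earlier results of these data known. The ORFs named are the 10 with the largest difference each way, the 3 just inside and outside each limit, the 10 longest and 5 shortest leaders with no fraction call, and up to 4 members of each list. Others, such as APA2, RNH203, SSN8, DGK1, INH1, TPM1, QRI1, YNL320W, EFT2, TDH3, RPS6B, the Ty ORFs and the COS family, were picked once their values had been seen. Repeated copies were found from the RefSeq table alone, as unnamed ORFs over 1000 nt with a span shared by 5 or more of them or a 5′ end in common with one, and as COS genes. Alternatives changed the subtraction, the limits, the fractions needed, the handling of replicates and the libraries used.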

Additional observations from a re-analysis of the deposited data

Results flagged for a closer look

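TATL-seq fraction 1 stood apart from the other fractions in the number of ORFs with a call. It called 1619 of the ORFs that both S288C TL-seq libraries called, and the other 6 fractions called 1855 to 1944. It entered the comparison with 1330 ORFs, and the others with 1612 to 1654. In both cases its gap to the nearest fraction exceeded the 95% critical value of Dixon's test over the 7 fractions, a rule that picks out about 1 in 20 groups by chance. The fractions are different parts of a gradient and not replicates. Without fraction 1 there were 140 longer and 159 shorter ORFs, and 677 with no fraction call.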

How the results depend on the processing

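The 141 longer and 169 shorter ORFs became 335 and 354 with a limit of 10 nt, 78 and 94 with 30 nt, 36 and 29 with 50 nt, and 45 and 73 where all 7 fractions were required, which leaves fewer ORFs. Under the other settings both counts stayed within 1.5 times: 98 and 244 without subtraction, 137 and 158 with the median taken within 5 bins of leader length, and 209 and 233 with 1 fraction enough. Leaving out 1 fraction at a time gave 128 to 140 longer and 150 to 163 shorter ORFs and 609 to 677 with no fraction call. Using a single TL-seq replicate, which also drops the limit between replicates, gave 187 to 191, 237 to 240 and 705 to 766. Leaving out ORFs whose span is not a multiple of 3, gave 136 and 165, and leaving out repeated copies (Ty ORFs and COS genes) gave 140 and 169 and 534 with no fraction call. Both were chosen after seeing the data.

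Of the ORFs apart with a Sigma call, 76.0% lay within 10 nt of TATL-seq. This was 61.1% with a limit of 5 nt, 87.4% with 20 nt and 82.8% among ORFs 50 nt or more apart. With −5 nt, the median of Sigma minus S288C TL-seq, subtracted from the Sigma lengths it was 67.7%. The median of Sigma minus TATL-seq was 0 nt, so that subtraction moves Sigma off TATL-seq. The share near S288C TL-seq, 6.59%, was 4.79% with 5 nt, 28.7% with 20 nt, 7.78% with the same subtraction and 0.0% among ORFs 50 nt or more apart. No paired analysis was possible because the numbers in the labels name biological replicates in TL-seq and fractions in TATL-seq, and these results come from no test. Letters at the start sites were not analysed, and intron positions were not used here, so ribosomal protein genes were left out instead (135 and 162). Read depth behind each length is unknown, which limits every call.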
